A study of Chlamydomonas reinhardtii with 5 samples.

Results

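The ORFs described here had higher RNA counts in irradiated Chlamydomonas reinhardtii than in the mock, after X-rays as well as after γ-rays. Their counts at 6 Gy and at 50 Gy differed by no more than a set window allowed. These ORFs were chosen from the counts themselves. Each of the 4 irradiated libraries had to hold at least 2 times the scaled count of the mock, and the 50 Gy to 6 Gy ratio had to lie between 0.6 and 1.7 for both radiations. Scaled counts are raw counts divided by a median-of-ratios size factor of the library, with 1 added before ratios were formed. The mean raw count had to reach 20, and 15 ORFs that the study tabulated separately were left out. Of 17742 genes counted, 12839 had the required mean count, 12829 of these were outside the tabulated ORFs, and 21 met the whole rule.

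The 4 irradiated groups were XR50, XR6, GR50 and GR6, which received X-rays of 50 or 6 Gy or γ-rays of 50 or 6 Gy, and the mock received 0 Gy. All 5 libraries came from 1 strain, CC-125, of the WT genotype, grown to mid-exponential phase in TAP, an acetate medium, under constant white light. X-irradiated cells were concentrated into small tubes and exposed for 8.1 min (50 Gy) or 22.2 min (6 Gy) at different tube currents, whereas γ-irradiated cells were left unconcentrated and received either dose over 1 h. Radiation type and handling, and dose and dose rate, therefore cannot be told apart in these data. The Methods of the paper state neither how the mock was handled nor the time from irradiation to RNA harvest. A single mock served both handlings, so irradiation and handling cannot be fully told apart in the ratios to mock. The Methods mention 3 biological replicates, and 1 library per condition was analysed here, so that no comparison with the mock had a replicate check. One mock library was the denominator of all 4 ratios, and a low mock value alone would raise them together.

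Ionizing radiation breaks DNA and, by splitting water, produces reactive oxygen species. Plants and green algae answer with the DNA damage response (DDR), in which genes of DNA repair are transcribed more strongly as damage grows, and with genes that handle oxidized molecules and damaged proteins. Genes of homologous recombination and end joining are the best known members of the DDR.

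Reads on genes ranged from 18364833 in XR6 to 20330055 in GR50, with size factors between 0.940 and 1.04, and 15141 genes had a count above 0 in every library. Between 49.3% and 55.9% of the listed reads fell on genes, and reads not aligned made up 32.2% in XR6, the lowest share, and at most 41.8%. Known DDR genes are given for comparison, not as a check of the labels. CrRPA70A, a subunit of the replication protein that coats single-stranded DNA, stood at 29.5 times mock in XR50, 13.4 times in XR6, 57.4 times in GR50 and 9.55 times in GR6. CrRAD51, the recombinase of homologous recombination, stood at 46.2, 13.6, 68.0 and 10.0 times mock in the same libraries. Both were above mock in every irradiated library and higher at 50 Gy than at 6 Gy. This is the pattern that the rule for the 21 ORFs leaves out. The study tabulated CrRPA70A and CrRAD51 for a change over mock under both radiations in its RNA-Seq. Their rise over mock was thus fixed by that choice, and it cannot tell X-ray from γ-ray labels.

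Among the 12829 genes, 577 (4.5%) reached 2 times mock in XR50, 796 (6.2%) in XR6, 1664 (13.0%) in GR50 and 775 (6.04%) in GR6. All 4 libraries reached it together for 227 genes (1.77%). The plot of dose ratios sorts these 227 by their step from 6 to 50 Gy. Both dose ratios exceeded 1.7 for 102 of them. The X-ray ratio lay in the window and the γ-ray ratio above it for another 96, and 8 had other combinations. The 21 ORFs were thus the minority of the induced genes without a step beyond the window under either radiation. Since the rule fixed these values, they are given as a description with no test. A dose ratio inside the window was by itself the usual case, for it held for 91.2% of all 12829 genes after X-rays and for 81.8% after γ-rays.

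**Figure D1:**
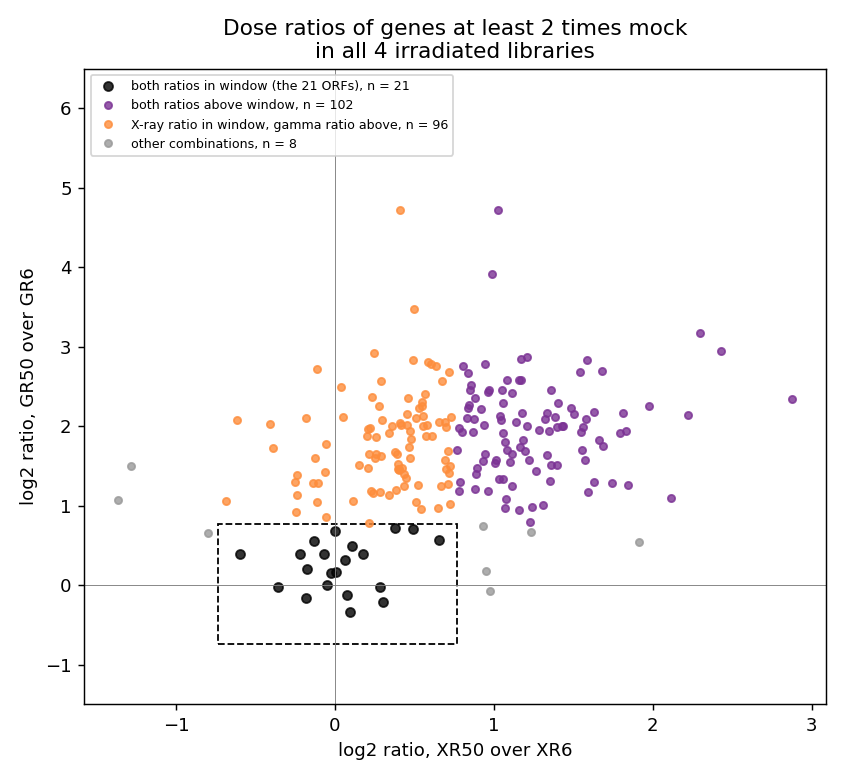
Each point is 1 of the 227 genes at 2 or more times mock in all 4 irradiated libraries, with the log2 ratio of XR50 over XR6 on the x axis and of GR50 over GR6 on the y axis, and the dashed square is the window of 0.6 to 1.7. The 21 ORFs (black) fill the square, while 102 genes lie above it on both axes and 96 lie above it on the γ-ray axis alone.

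The 21 ORFs were raised moderately and were mostly thinly counted. Their median ratio to mock was 2.72 in XR50 (range 2.05 to 4.72), 2.57 in XR6 (2.01 to 4.20), 2.93 in GR50 (2.17 to 7.29) and 2.58 in GR6 (2.02 to 4.97). Their mean raw count over the 5 libraries had a median of 46.4 and ran from 20.2 to 996.2, and 10 of the 21 had fewer than 20 counts in the mock. The reference used gives no product and no symbol for any gene, so whether the 21 are annotated elsewhere was not examined. Each is given by its locus tag, with its place on the RefSeq v5.5 assembly, and no role is assigned. The cultures were bulk samples, in which more transcribing cells and more RNA per cell cannot be told apart.

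CHLRE_01g023950v5 was the ORF with the largest response by its weakest library. It lies on chromosome 1 between positions 3728896 and 3733422. It had 247 raw counts in XR50, 279 in XR6, 531 in GR50 and 341 in GR6, against 65 in the mock. The ratios were 3.53 in XR50 (95% interval 2.70 to 4.76), 3.87 in XR6 (2.97 to 5.20), 7.29 in GR50 (5.70 to 9.70) and 4.94 in GR6 (3.83 to 6.63). These intervals are exact (Clopper-Pearson) for the 2 counts behind each ratio and cover counting error only, not the spread between cultures. All 4 libraries stood above the mock beyond counting error, and both γ-ray libraries stood above both X-ray libraries.

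CHLRE_16g648650v5 on chromosome 16 (943268 to 947533) was the most deeply counted of the 21 and is thus the most precisely measured. It had 1202 raw counts in XR50, 953 in XR6, 1575 in GR50 and 907 in GR6, against 344 in the mock. Its ratios to mock were 3.27 (2.91 to 3.71) in XR50, 2.52 (2.23 to 2.86) in XR6, 4.13 (3.68 to 4.66) in GR50 and 2.51 (2.22 to 2.85) in GR6. The 6 Gy libraries of the different radiations gave nearly the same value, and both 50 Gy libraries were higher. With counts of this size even the permitted step was larger than counting error, as described with the dose ratios.

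CHLRE_13g583700v5 on chromosome 13 (2920330 to 2926533) came closest to a level response among the well counted ORFs. It had 125 raw counts in XR50, 135 in XR6, 152 in GR50 and 110 in GR6, against 35 in the mock. The ratios were 3.29 in XR50, 3.44 in XR6, 3.85 in GR50 and 2.94 in GR6, and the lowest bound of any of their intervals was 2.03. CHLRE_01g023950v5, CHLRE_16g648650v5 and CHLRE_13g583700v5 were the only 3 of the 21 whose interval lay wholly above 2 in all 4 irradiated libraries, against 0.935% of all 12829 genes.

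CHLRE_03g164450v5 on chromosome 3 (3061316 to 3068845) had 219 raw counts in XR50, 143 in XR6, 244 in GR50 and 156 in GR6, against 50 in the mock. Both 50 Gy libraries exceeded 4 times mock, with ratios of 4.05 in XR50 and 4.35 in GR50, and both 6 Gy libraries stayed under 3, with 2.57 in XR6 and 2.94 in GR6. CHLRE_17g713000v5 on chromosome 17 (2169596 to 2173217) had 178 raw counts in XR50, 214 in XR6, 240 in GR50 and 173 in GR6, against 81 in the mock. It was among the weakest responses, with ratios of 2.05 in XR50, 2.39 in XR6, 2.66 in GR50 and 2.02 in GR6. Its 4 irradiated libraries lay within a narrow band, and all exceeded the mock by more than counting error.

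The other ORFs with large ratios rested on few mock reads. CHLRE_11g474850v5 on chromosome 11 (2397555 to 2401172) had 46 raw counts in XR50, 44 in XR6, 45 in GR50 and 30 in GR6, against 9 in the mock. Its XR50 ratio of 4.44 carried an interval of 2.32 to 11.1. CHLRE_02g089608v5 on chromosome 2 (2178501 to 2191186), the longest gene of the 21 at 12686 bp, had 59 raw counts in XR50, 43 in XR6, 54 in GR50 and 31 in GR6, against 11 in the mock. In both, GR6 was the lowest of the 4 irradiated libraries.

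CHLRE_12g489650v5 on chromosome 12 (1198620 to 1203803) had 41 raw counts in XR50, 43 in XR6, 40 in GR50 and 34 in GR6, against 12 in the mock. Its ratios stayed between 2.58 in GR6 and 3.10 in XR6, a level response within wide intervals. CHLRE_07g330150v5 on chromosome 7 (2605673 to 2610007) was the least counted, with 29 raw counts in XR50, 31 in XR6, 18 in GR50 and 17 in GR6, against 6 in the mock. Its ratios of 4.06 in XR50 and 2.48 in GR50 had intervals of 1.85 to 13.4 and 1.03 to 8.34. Its γ-ray intervals nearly reached the mock level.

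CHLRE_09g406650v5 on chromosome 9 (6308039 to 6317824) had the most uneven response. It had 24 raw counts in XR50, 38 in XR6, 78 in GR50 and 56 in GR6, against 10 in the mock. The γ-ray ratios were 6.53 in GR50 and 4.97 in GR6, and the X-ray ratios were 2.14 in XR50 and 3.25 in XR6. CHLRE_06g270900v5 on chromosome 6 (2759602 to 2765573), with 23 raw counts in XR50, 19 in XR6, 28 in GR50 and 31 in GR6 against 8 in the mock, was the only ORF with an interval that reached below mock level. That was in XR6, at 2.04 (0.904 to 5.71). For the remaining 20 ORFs all 4 intervals lay above 1, a property shared by 7.58% of the 12829 genes.

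Apart from CHLRE_17g702700v5 and CHLRE_07g323700v5, which are given with the thresholds, the remaining 8 ORFs had mean raw counts between 30.2 and 92.4 and ratios to mock between 2.05 and 3.77. CHLRE_04g225750v5 stood at 2.79 times mock in XR50, 3.15 in XR6, 2.83 in GR50 and 2.46 in GR6. CHLRE_09g396772v5 stood at 2.62, 2.45, 2.32 and 2.92 in the same order, and CHLRE_02g086750v5 at 2.72, 2.23, 2.67 and 2.71. These 3 had no library that stood apart. CHLRE_03g196600v5 was higher after X-rays, with 3.30 in XR50 and 3.13 in XR6 against 2.27 in GR50 and 2.47 in GR6. CHLRE_10g421350v5 was higher after γ-rays, with 2.15 in XR50 and 2.44 in XR6 against 3.07 in GR50 and 3.45 in GR6. For CHLRE_03g196600v5 and CHLRE_10g421350v5 alike, the counting interval of the X-ray to γ-ray ratio held 1 at each dose. CHLRE_16g688900v5 stayed between 2.05 in GR6 and 2.68 in GR50. CHLRE_14g633700v5 had 3 libraries between 2.36 and 2.41 and GR50 at 3.77, and CHLRE_15g640100v5 had 2.11 in XR50 and 2.10 in XR6 but 3.47 in GR50 and 3.10 in GR6.

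**Figure D2:**
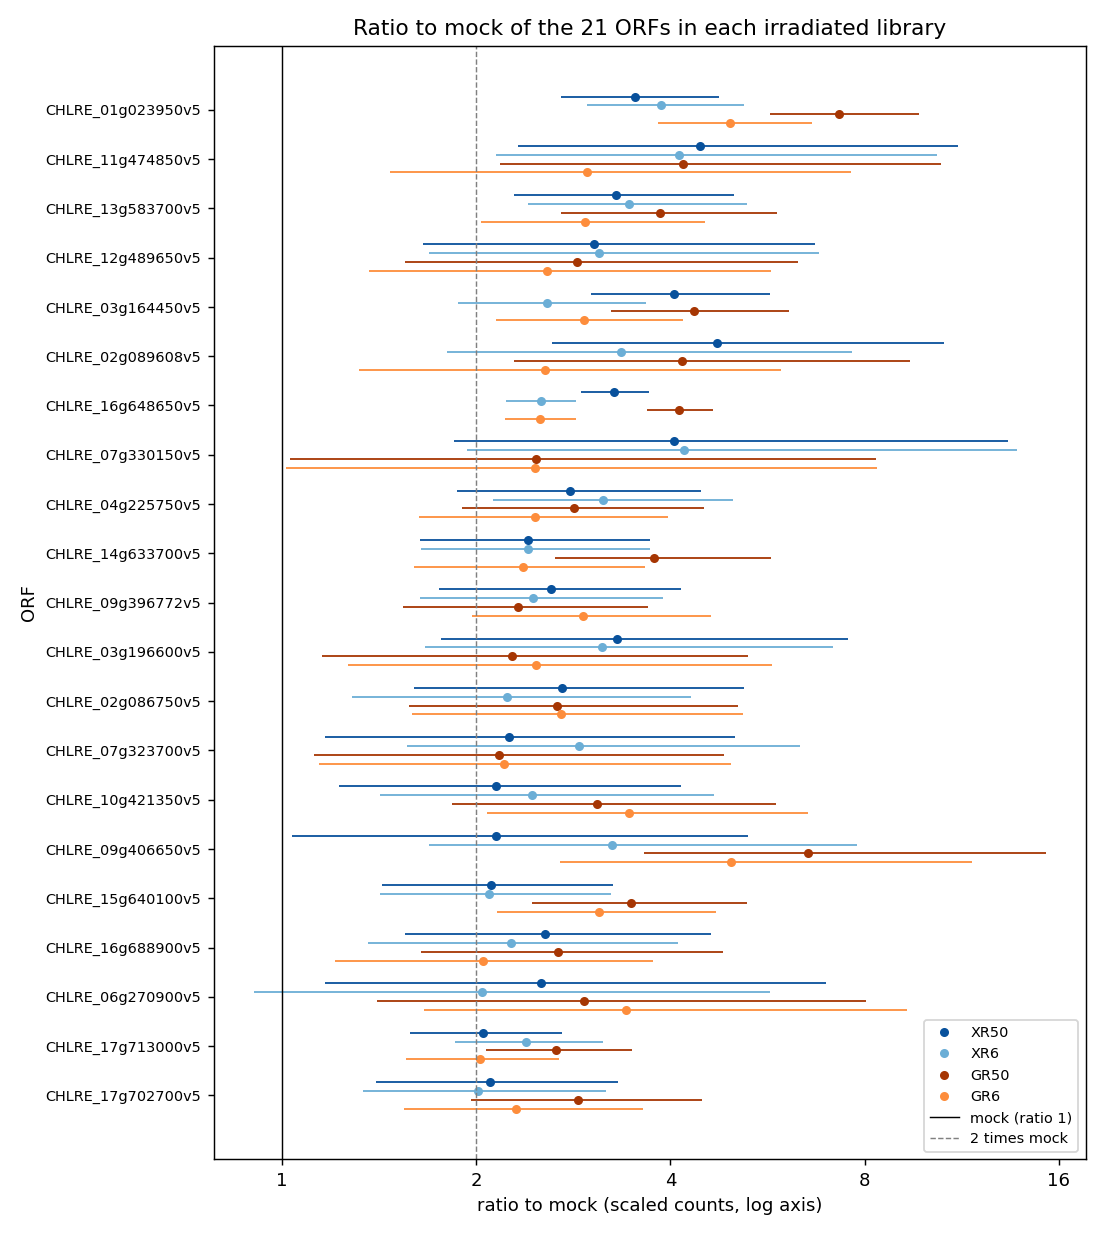
The ratio to mock of each of the 21 ORFs (log axis) is shown for XR50, XR6, GR50 and GR6, with horizontal lines for the 95% intervals of the 2 counts behind each ratio, in the order of the smallest ratio. Every point lies at or beyond 2 times mock (dashed line) by the rule, the intervals of CHLRE_16g648650v5 are the shortest, and only 1 line, that of CHLRE_06g270900v5 in XR6, crosses the mock level (solid line).

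By library, the interval lay wholly above 2 for 6 of the 21 ORFs in XR50, 5 in XR6, 10 in GR50 and 7 in GR6. The same held for 2.53% of all genes in XR50, 2.41% in XR6, 8.6% in GR50 and 3.2% in GR6. The highest of the 4 ratios fell in GR50 for 10 ORFs (28.4% of all genes), in XR50 for 4 (22.2%), in XR6 for 4 (24.9%) and in GR6 for 3 (24.5%). The lowest fell in GR6 for 10 (23.3% of all genes), in XR6 for 5 (25.3%), in XR50 for 3 (23.5%) and in GR50 for 3 (27.9%). At least 1 ratio reached 4 times mock for 7 ORFs, beside 4.63% of all genes. Nothing is read from these counts, since the rule used the same ratios.

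The thresholds cut through a continuous range. Just inside the fold limit were CHLRE_17g702700v5, on chromosome 17 (890839 to 896860), with a smallest ratio of 2.01, and CHLRE_17g713000v5 with 2.02. CHLRE_17g702700v5 had 75 raw counts in XR50, 74 in XR6, 107 in GR50 and 81 in GR6, against 33 in the mock. Just outside were CHLRE_11g469033v5 with 1.99 and CHLRE_02g095550v5 with 1.98. At the upper end of the window, CHLRE_16g648650v5 and CHLRE_02g089608v5 had larger dose ratios of 1.65 and 1.63, and CHLRE_07g315000v5 and CHLRE_10g438450v5 fell outside with 1.73 and 1.82. At the lower end, CHLRE_09g406650v5 and CHLRE_07g323700v5, the second on chromosome 7 (1482398 to 1486245), had smaller dose ratios of 0.661 and 0.779, and CHLRE_08g374750v5, with 0.575, was the only gene that fell outside on that side alone. CHLRE_07g323700v5 had 30 raw counts in XR50, 40 in XR6, 30 in GR50 and 29 in GR6, against 12 in the mock. For the mean count, CHLRE_07g330150v5 (20.2) and CHLRE_06g270900v5 (21.8) were inside, and CHLRE_17g739400v5 (19.6) and CHLRE_10g418800v5 (18.4) were outside.

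Equality at both doses was an allowance of the window rather than a measured identity. After X-rays, the log2 ratio of XR50 over XR6 had a median of 0.01 over the 21 ORFs and ran from −0.60 to 0.66, with 11 ORFs above 0, beside 50.5% of all genes. After γ-rays, the log2 ratio of GR50 over GR6 had a median of 0.32 and ran from −0.33 to 0.72, with 15 ORFs above 0, beside 48.8% of all genes. The γ-ray ratio was the larger of the pair for 16 of the 21, beside 50.6% of all genes. Both ratios exceeded 1 for 7 ORFs (22.6% of all genes), and both were below 1 for 2 (23.3%).

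The counting interval of the X-ray dose ratio lay wholly inside the window for 13 of the 21 ORFs, against 63.8% of all genes. That of the γ-ray dose ratio did so for 8, against 54.1% of all genes. Only 6 ORFs had both intervals inside, against 44.3% of all genes, namely CHLRE_01g023950v5, CHLRE_13g583700v5, CHLRE_04g225750v5, CHLRE_15g640100v5, CHLRE_17g713000v5 and CHLRE_17g702700v5. For the remaining ORFs the interval of at least 1 dose ratio reached beyond the window, so that equality to within the window was not established at this depth.

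Several ORFs still had a step of dose beyond counting error. The X-ray interval lay above 1 for 2 ORFs (25.9% of all genes), the γ-ray interval for 7 (28.3% of all genes), and no interval of either radiation lay below 1, which 23.0% of all genes did after X-rays and 26.6% after γ-rays. CHLRE_16g648650v5 was 1.30 times as high in XR50 as in XR6 (1.19 to 1.42) and 1.65 times as high in GR50 as in GR6 (1.52 to 1.79). CHLRE_03g164450v5 gave 1.58 (1.27 to 1.96) after X-rays and 1.48 (1.21 to 1.82) after γ-rays. These were the ORFs that were higher at 50 Gy under both radiations beyond counting error. The other 5 had a step after γ-rays alone by this measure. CHLRE_01g023950v5, for example, had a dose ratio of 0.913 (0.766 to 1.09) after X-rays and 1.47 (1.29 to 1.696) after γ-rays, and CHLRE_14g633700v5 had 0.998 (0.740 to 1.35) after X-rays and 1.60 (1.22 to 2.11) after γ-rays.

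The most level ratios came with wide intervals. CHLRE_07g330150v5, the least counted ORF, had dose ratios of 0.966 (0.561 to 1.65) after X-rays and 1.00 (0.488 to 2.07) after γ-rays. Among ORFs with a mean count of at least 100, CHLRE_13g583700v5 was the most level, with 0.955 (0.743 to 1.23) after X-rays and 1.31 (1.02 to 1.69) after γ-rays. CHLRE_17g713000v5 followed with 0.858 (0.699 to 1.05) and 1.31 (1.08 to 1.61). Both intervals held 1 for 14 of the 21 ORFs, against 27.2% of all genes, whose median mean count was 209. On the same scale CrRAD51 was far from this range, being 3.38 times as high in XR50 as in XR6 and 6.78 times as high in GR50 as in GR6.

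Because both dose ratios were used to choose the ORFs, the ratio of one radiation was also read in genes chosen without it. With the mock and both X-ray libraries alone, 246 genes were at 2 times mock or more with an X-ray dose ratio in the window. Of these, 80 (32.5%) had a γ-ray dose ratio in the window, 161 (65.4%) were above it and 5 below, and the median ratio of GR50 over GR6 was 2.30. Among the 130 genes with an X-ray dose ratio above the window, 8 (6.15%) had a γ-ray ratio in it and 122 (93.8%) above, with a median of 3.77. Genes are called level here where the dose ratio lay in the window, which still allows a step. A level response to X-rays thus went with a γ-ray ratio above the window in most genes. The median γ-ray ratio was larger in the genes above the window after X-rays. Over all 12829 genes, 81.8% of γ-ray ratios lay in the window and the median was 0.991.

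The choice was also made the other way round, with the mock and both γ-ray libraries. It gave 248 genes with a γ-ray dose ratio in the window, and 187 of them (75.4%) had an X-ray dose ratio in the window as well. A further 19 (7.66%) were above it and 42 below, with a median of 0.825. Of the 302 genes with a γ-ray ratio above the window, 166 (55.0%) had an X-ray ratio in it and 126 (41.7%) above, with a median of 1.51. Over all genes 91.2% of X-ray ratios lay in the window and the median was 1.00. Of the 248 genes, 229 (92.3%) were thus in the window or below it after X-rays, beside 96.0% of all genes. These shares describe genes of 5 libraries, and genes are not independent replicates.

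**Figure D3:**
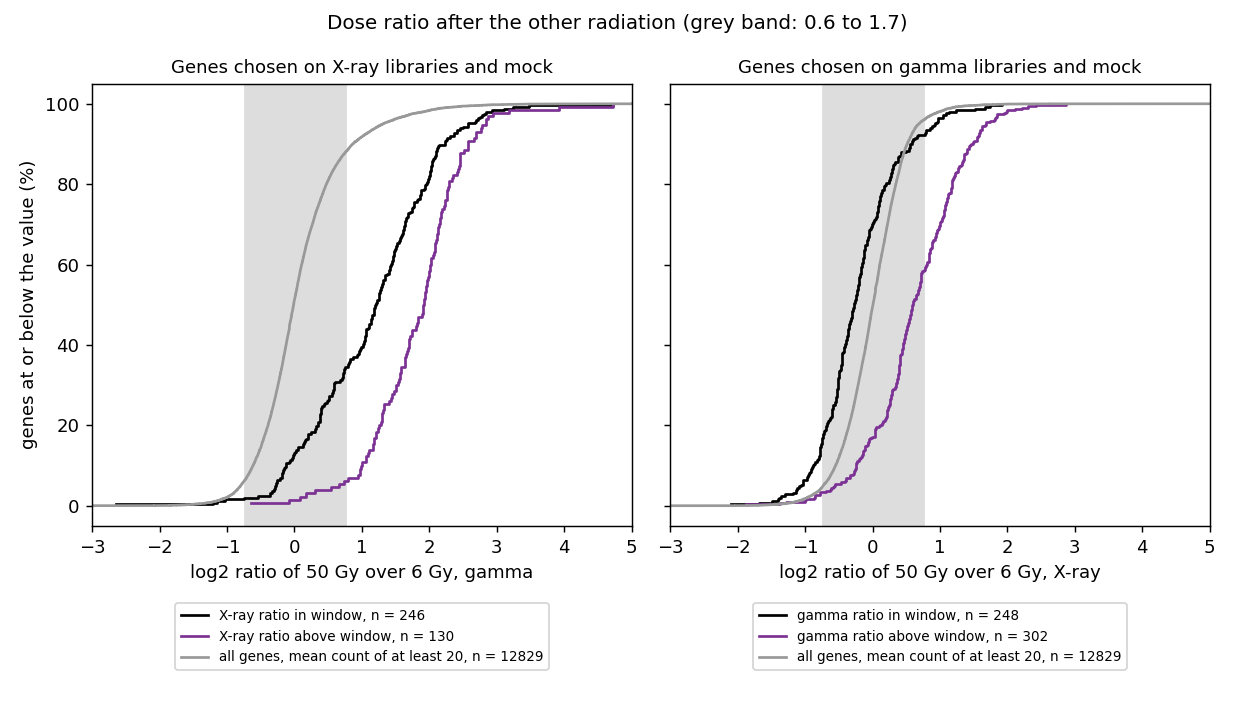
The curves give the percentage of genes at or below each log2 ratio of 50 Gy over 6 Gy in the radiation that was not used to choose them, for genes at 2 or more times mock chosen on the X-ray libraries (left) or γ-ray libraries (right), with the window shaded. On the left the black curve (246 genes level after X-rays, median ratio 2.30) runs right of the grey curve of all genes, and on the right the black curve (248 genes level after γ-rays, median ratio 0.825) runs left of it over most of its course.

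The rule set no direct limit on the difference between radiations, but it used the same 4 irradiated libraries and required each of them to reach 2 times the mock, which leaves out genes raised by 1 radiation alone. The values of the 21 ORFs are therefore a description shaped by that choice, and nothing is read from how many were called. A quasi-likelihood fit of edgeR on the 4 irradiated libraries, with dose as covariate and 1 residual degree of freedom, called 1412 of 14112 genes (10.0%) at an adjusted p under 0.05, of which 546 (3.87%) were higher after X-rays and 866 (6.14%) after γ-rays. None of the 21 ORFs was called, and 2 of the 21 had an unadjusted p under 0.05, against 20.3% of all genes. The Wald test of DESeq2 called 809 of the 14112 genes. Of the 21 ORFs it called 0, and 0 passed unadjusted. CHLRE_07g330150v5 and CHLRE_06g270900v5 were given no adjusted p in that test. The fitted log2 effect of X-rays over γ-rays was below 0 for 12 ORFs and above 0 for 9, with a median of −0.06 beside −0.01 over all genes. The smallest called effect among all genes was 0.83, and standard errors of the 21 ranged from 0.32 to 0.54.

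CHLRE_09g406650v5 was the ORF with the largest difference between radiations. It was lower after X-rays by a log2 effect of −1.12 (SE 0.45, interval −1.99 to −0.24) in the edgeR fit. At 50 Gy its X-ray to γ-ray ratio was 0.329 (0.193 to 0.511), and at 6 Gy it was 0.654 (0.417 to 0.996). CHLRE_01g023950v5 had an effect of −0.70 (interval −1.38 to −0.02) with ratios of 0.484 (0.414 to 0.563) at 50 Gy and 0.782 (0.664 to 0.918) at 6 Gy. CHLRE_15g640100v5 had −0.64 (−1.38 to 0.09) with ratios of 0.607 at 50 Gy and 0.677 at 6 Gy. In these 3 ORFs both ratios lay below 1 beyond counting error, which 17.7% of all genes also did. None of the 3 was called in the fit, and the intervals of the fitted effects do not measure the spread between cultures.

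In the opposite direction, CHLRE_07g330150v5 had the largest effect, 0.77 (−0.29 to 1.84). Its X-ray to γ-ray ratios were 1.64 (0.899 to 3.20) at 50 Gy and 1.7004 (0.934 to 3.35) at 6 Gy, and neither interval cleared 1. No ORF was higher after X-rays beyond counting error at 50 Gy (30.0% of all genes were) or at 6 Gy (29.2% of all genes). The γ-ray library was higher beyond counting error for 7 of the 21 at 50 Gy and for 3 at 6 Gy, beside 33.5% and 31.8% of all genes. For CHLRE_13g583700v5 the effect was 0.00 (−0.70 to 0.71), an interval that still allows a difference of more than 1.5 times in either direction.

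**Figure D4:**
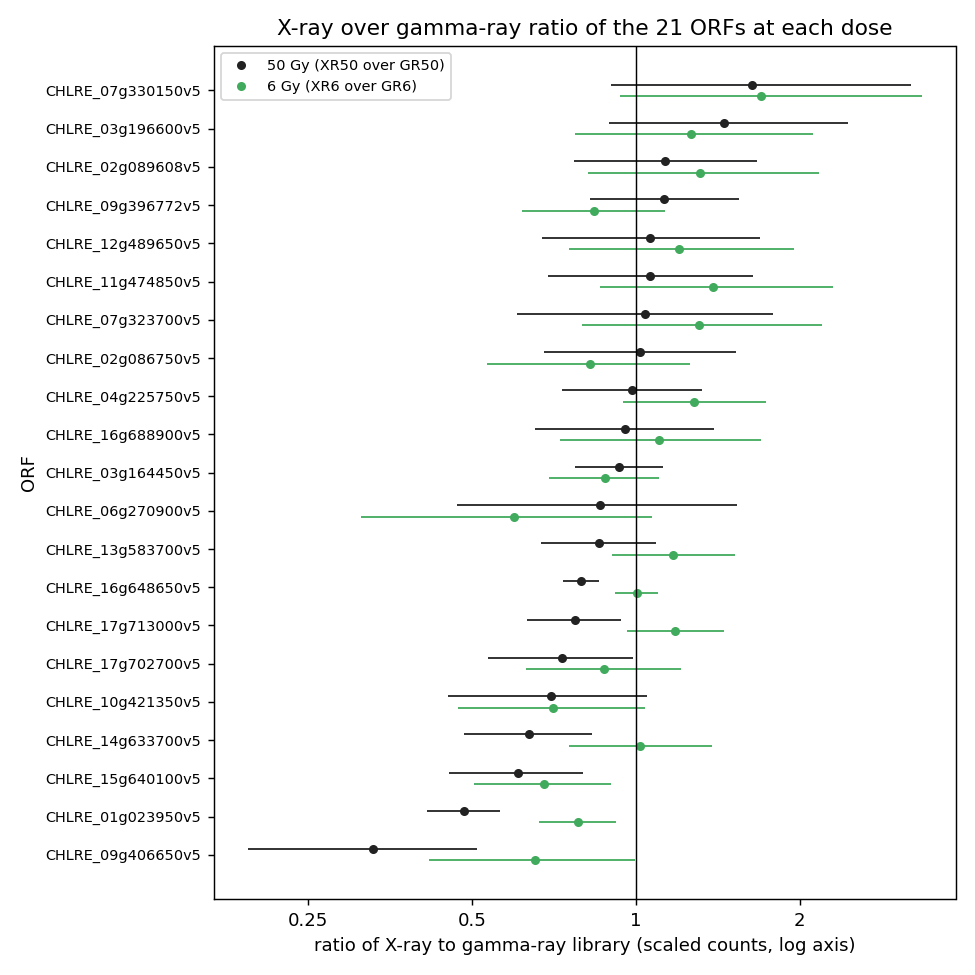
The ratio of the X-ray to the γ-ray library (log axis) is shown for each of the 21 ORFs at 50 Gy and at 6 Gy, with 95% counting intervals and in the order of the 50 Gy ratio. At 50 Gy 7 lines end left of 1, those of CHLRE_09g406650v5 (0.329) and CHLRE_01g023950v5 (0.484) farthest, and no line at either dose starts right of 1.

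Beside the other induced genes, the 21 ORFs had smaller ratios to mock and lower mean counts. The mean count takes in the irradiated libraries, so smaller ratios lower it. The 102 genes with both dose ratios above the window had median ratios to mock of 13.1 in XR50, 5.68 in XR6, 17.1 in GR50 and 4.21 in GR6. The 96 genes with an X-ray dose ratio in the window and a γ-ray ratio above it had medians of 6.41, 5.09, 11.2 and 3.47 in the same libraries. Their log2 ratio of XR50 over XR6 had a median of 0.40, a rise that the window permits. At 6 Gy the 21 ORFs, at 2.57 in XR6 and 2.58 in GR6, thus lay below both classes as well. The median mean count was 46.4 for the 21 ORFs, 182.2 for the 102 genes and 201.4 for the 96 genes, whereas the median mock count was 20, 17 and 28.5. Over all 12829 genes the median mock count was 180, so that all 3 classes consisted largely of genes with few reads in the mock. No test was made between these classes, which the dose ratios and counts themselves define.

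The genes of the 21 ORFs had a median length of 5972 bp and a range of 3618 to 12686 bp, beside 5822 bp for the 102 genes, 6999.5 bp for the 96 genes and 4762 bp for all genes. An older locus tag, carried over from an earlier annotation, was listed for 13 of the 21 (61.9%), for 72.5% of the 102, for 61.5% of the 96 and for 80.3% of all genes. They were scattered over 15 chromosomes, with at most 2 on any one. None overlapped an adjacent gene and none was adjacent to another of the 21.

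Of the 21 ORFs, 2 (9.52%) had a directly adjacent gene among the 227 induced genes, beside 349 of all 12829 genes (2.72%). CHLRE_01g023950v5 lies 190 bp from CHLRE_01g024000v5, which had 255 raw counts in XR50, 152 in XR6, 225 in GR50 and 86 in GR6, against 23 in the mock. That neighbour was higher at 50 Gy than at 6 Gy, at 10.0 times mock in XR50 and 5.82 in XR6, and at 8.53 in GR50 and 3.46 in GR6. CHLRE_06g270900v5 lies 150 bp from CHLRE_06g270850v5, which had 271 raw counts in XR50, 367 in XR6, 635 in GR50 and 182 in GR6, against 72 in the mock. Its ratios were 3.50 in XR50, 4.59 in XR6, 7.88 in GR50 and 2.39 in GR6, with a dose ratio above the window after γ-rays alone. CHLRE_15g640100v5 lies 317 bp from CHLRE_15g640101v5, a gene outside the 227 that is named after its values were seen. That gene had a mean raw count of 1810. It stood at 1.38 times mock in XR50, 0.945 in XR6, 3.18 in GR50 and 2.92 in GR6. Other ORFs of the 21 also have neighbours this close. The libraries were stranded. Whether strand was used in counting is not given in the sources used here. Whether reads were shared with close neighbours was not tested for any of the 21.

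The rule turned round, an alternative chosen after seeing the data, found few genes. Only 4 genes stood at or below 50% of the mock in all 4 irradiated libraries, and 3 of them had both dose ratios in the window. The 3 were CHLRE_10g457950v5, CHLRE_01g026200v5 and CHLRE_02g095142v5, the fourth was CHLRE_13g572312v5, and they are named after their values were seen. CHLRE_10g457950v5 had 38 raw counts in XR50, 34 in XR6, 48 in GR50 and 47 in GR6, against 98 in the mock. Genes raised to 2 times mock in every irradiated library numbered 227, and those lowered to the same extent 4, with the mock library common to both counts. The filter on the mean count bears on them unequally. A raised gene can pass it with few reads in the mock. A lowered gene needs a mock count above the limit, since its irradiated libraries lie lower. Nothing is read from the difference.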

How the data were processed

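RNA-Seq was performed on 5 libraries of C. reinhardtii CC-125, 1 per condition. The authors prepared stranded total RNA libraries and deposited raw counts per gene. The submitters' processing notes list FastQC 0.11.5, Trimmomatic 0.36, HISAT2 2.2.1, HTSeq 0.11.3 and edgeR. Whether HTSeq counted by strand is not given in the sources used here. Counters of reads not assigned to a gene, 44.1% to 50.7% of the listed reads, were left out of library sizes and tests.

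The members and lists were chosen with earlier results of these data known. Counts were divided by median-of-ratios size factors and 1 was added to form ratios. Intervals of a ratio are exact 95% Clopper-Pearson intervals of the 2 raw counts without the added 1, and cover counting error only. Named ORFs were the 8 with the largest smallest ratio to mock and the 5 with the highest mean count. The 5 most level among those with a mean count of at least 100 and those nearest to each threshold, 2 a side, were named as well. Members with a type effect past the threshold and adjacent members were to be named too, and neither kind was found. Annotated members could not be sought, because the reference used gives no product and no symbol for any gene. The other ORFs are given as examples of the remaining values. The difference between X-rays and γ-rays was fitted over all genes with edgeR 4.0.16 (TMM factors, filterByExpr, quasi-likelihood test with Benjamini-Hochberg adjustment over all genes tested, additive with dose, threshold 0.05) in R 4.3.3. The fit had no replicate of any condition, so the part of the dose step that differed between radiations served as its error. With 1 residual degree of freedom the variance came from the trend over all genes. The p-values and the intervals of the fitted effects therefore do not measure the spread between cultures. Both the fit and the ratio script were tested on simulated data. Alternatives were other scalings, pseudocounts, count filters, folds, windows, depth thinning, leaving out each irradiated library, and DESeq2 1.42.0. Positions, lengths and older locus tags came from RefSeq (v5.5), where all 17742 IDs matched and none had a symbol of its own. Promoter motifs, protein features, orientation of neighbours and annotation lists had been planned, and are not analysed here.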

Additional observations from a re-analysis of the deposited data

Results flagged for a closer look

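For 13 of the 21 ORFs the dose steps had opposite signs under the radiations or counting intervals that did not overlap, and each is given by its log2 ratio of GR50 over GR6 minus its log2 ratio of XR50 over XR6. The differences were not tested, since each step rests on 1 library a dose. The steps had opposite signs in 12 of the 21, beside 54.1% of all genes, and for most of these the counting intervals overlapped. The γ-ray step was the positive one in 8 of them, with differences of 0.69 for CHLRE_01g023950v5, 0.45 for CHLRE_13g583700v5, 0.18 for CHLRE_12g489650v5, 0.055 for CHLRE_07g330150v5, 0.38 for CHLRE_04g225750v5, 0.68 for CHLRE_14g633700v5, 0.99 for CHLRE_09g406650v5 and 0.61 for CHLRE_17g713000v5. The X-ray step was the positive one in 4, with differences of −0.43 for CHLRE_09g396772v5, −0.20 for CHLRE_03g196600v5, −0.30 for CHLRE_02g086750v5 and −0.52 for CHLRE_06g270900v5. Counting intervals of the γ-ray and X-ray ratios did not overlap for 3 ORFs (42.7% of all genes), CHLRE_01g023950v5, CHLRE_17g713000v5 and CHLRE_16g648650v5, the last with both steps positive and a difference of 0.34. No group held enough libraries for a check of a library that stands apart within its group.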

How the results depend on the processing

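The 21 ORFs were a count that moved with the thresholds. It was 13 with a pseudocount of 5 (11 of the 21 shared), 36 with a mean count of at least 10 and 60 with no filter on the mean count (all 21 shared in both), 10 with a mean count of at least 50, 114 with a fold of 1.5 and 1 with a fold of 3, which was CHLRE_01g023950v5. Leaving out XR50, XR6, GR50 or GR6 in turn loosens the rule and gave 41 to 187 genes, the highest without GR6 and the next, 123, without GR50. TMM factors gave 20, library totals 30 (20 shared), a pseudocount of 0.1 25, the window of 0.5 to 2 30, the window of 0.7 to 1.4 14, and thinning to the smallest library 17 (15 shared). Library totals moved the median of all genes against mock by 0.20 on the log2 scale in XR6 and by less than 0.1 in the other libraries. Of genes level after X-rays, the share also level after γ-rays was 32.5%, and 23.1% with a mean count of at least 50; its other values ran from 29.0% to 36.1%. The mirrored share of 75.4% ran from 70.1% to 79.5%. Though the choice of the 21 shapes their count of calls, none was called for radiation type under any of the 6 alternatives, where the lowest adjusted p among the 21 ran from 0.0906 to 0.381 and unadjusted calls numbered 0 to 2. Over all genes that test called 1412, against 531 with type fitted alone, 809 with the Wald test of DESeq2 and 965 with library totals; the cause was not tested. The 2 ORFs with an induced neighbour were still 2 with 1 gene allowed between, whereas the share of all genes rose from 2.72% to 4.99%. The alternative promoter window was not run. No paired analysis was possible because each condition had 1 library.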
